A study of Mus musculus with 2 samples.

Results

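The genes described here are 38 genes of lung mesenchyme and interstitial matrix, measured in RNA of mouse lung epithelial cells. They are markers of fibroblasts, smooth muscle, pericytes and mesothelium, together with the collagens, elastic fibre proteins, matricellular proteins, proteoglycans, proteases and inhibitors of the interstitial matrix. They were taken by name from a list, and every array probe whose RefSeq accession maps to one of them was used. All 38 genes were on the array, with 45 probes, out of 20656 named genes. One Agilent array (1-colour, Cy3) was hybridised with RNA of cells labelled Mob1DKO and another with RNA of cells labelled wild type (WT). Mice of both groups were C57BL/6 and 10 weeks old by the labels. Mob1DKO is not expanded there, and is taken to mean a double knockout of Mob1a and Mob1b, whose proteins help the LATS kinases to restrain YAP and TAZ. Neither a Cre driver, nor how many animals made up a preparation, nor how cells were isolated could be read from the labels.

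Mesenchymal cells build the connective tissue of the lung. Fibroblasts secrete fibrillar collagens, collagen VI and elastic fibres, smooth muscle wraps airways and vessels and contracts through its own actin and myosin isoforms, pericytes sit on capillaries, and mesothelium covers the lung surface. Epithelial cells make little of most of these products. Some of the genes, such as Fn1, Sparc, Timp3 and Mgp, are also made by epithelium, endothelium or macrophages. YAP and TAZ, the effectors of the Hippo pathway, act through TEAD transcription factors, and TEAD sites are known in smooth muscle genes.

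Levels are the log2 processed signal minus that of the array's 75th percentile (a signal of 291 for Mob1DKO and 155 for WT), and differences are Mob1DKO minus WT. Levels of different probes are not comparable, so each difference compares a gene only with itself. Summed levels of a marker list add up different probes, are dominated by the brightest ones, and are set side by side only between arrays. There was 1 array per group, so no test was possible, and no p-value is given. Of all 55681 probes, 58.6% (Mob1DKO) and 53.1% (WT) were flagged well above background, and none was saturated. Probes printed at 10 spots gave the error of a single-spot difference, which was 0.48 (SD) for levels under -2, 0.25 between -2 and 0, 0.11 between 0 and 2, and 0.066 above. This error leaves out the spread between animals and preparations. In bulk RNA, fewer cells of a type and less RNA per cell cannot be told apart. The targeted gene Mob1b had levels of -2.98 for Mob1DKO and -0.98 for WT, and its second probe differed by -2.70. Mob1a, at -2.49 and -2.56, differed by 0.07; whether its probe lies in the deleted part is not known here. Xist differed by -2.29, and the Y-linked Ddx3y was at least 22.7-fold higher on the Mob1DKO array, so sex and genotype cannot be told apart.

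All 19 measured epithelial markers were well above background on both arrays, with a median difference of -0.01. The brightest were Scgb1a1, the club cell secretoglobin, with a difference of -0.84, and Sftpc, surfactant protein C, with -0.78. Before scaling, their processed signals were 471921 (Mob1DKO) and 449251 (WT) for Scgb1a1, and 485298 and 444596 for Sftpc. Among endothelial markers, 8 of 12 were well above background on both arrays, with a median difference of -0.23, summed linear levels of 32.5 (Mob1DKO) and 45.5 (WT), and Cdh5, Tek, Tie1 and Emcn below background. The endothelial differences had both signs, 5 below and 3 above 0, with 3 at -0.5 or lower and 2 at 0.5 or higher. The brightest were Kdr (-0.60) and Esam (-0.15), and the highest differences, picked after their values were seen, were Flt1 (0.98) and Egfl7 (0.53). Without Kdr the summed levels of the endothelial markers were 7.75 and 7.99. Of 13 leukocyte markers, 7 were well above background on both arrays, with a median difference of -0.05 and summed levels of 495 and 533. Below background on both arrays were 5, among them the pan-leukocyte gene Ptprc. Most of these sums came from the 2 brightest, Lyz2 and Itgam, which differed by -0.18 and -0.05. Their Mob1DKO levels were 7.92 and 7.88, against 2.90 for Csf1r, the next brightest. Which cells gave these 2 signals was not tested. By the 2-fold rule given below, the B cell gene Cd79a was called, at least 3.38-fold higher. It was 1 of 8 measured leukocyte genes (12.5%, against 1.93% of all measured genes called higher). Itgax differed by 0.53, and both were named after their values were seen. Of 7 red cell genes, 5 were measured on at least 1 array. All 5 were called lower on the Mob1DKO array (100%, against 2.53% of all measured genes). The brightest were the globins Hba-a2 and Hba-a1 at -3.42 and -3.10, and the summed levels of the list were 1.35 and 14.3. The other 3 called were the beta globins Hbb-bs, Hbb-bt and Hbb-b2, at least 3.23-fold, 19.4-fold and 5.78-fold lower.

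Mesenchymal RNA was present on both arrays. Few of the genes differed 2-fold, but their median difference lay below that of all genes. Of the 38 genes, 33 were well above background on both arrays. Col5a2, Lox and Lum were well above background on 1 array for the probe used, and Tnc and Spp1 on neither. A gene was called when it differed at least 2-fold between arrays that both measured it, or when a gene measured on 1 array had a lower bound of 2-fold. By this rule 1 of 36 genes was called higher (Lum), a share of 2.78% against 1.93% of all measured genes, and 2 of 36 were called lower (Cspg4 and Postn), 5.56% against 2.53%. In either direction 4.46% of all measured genes were called. Just inside that limit lay Postn at -1.04, and just outside it Acta2 and Tagln, both at -0.97. The median difference over the 33 genes was -0.25, while the median of all genes measured on both arrays was 0.01. Over 36 genes it was -0.16, with Lum at its bound and Col5a2 and Lox, which had no positive bound, taken as no difference. Of the 33, 21 lay below 0 (63.6%, against 48.2% of all genes), 9 at -0.5 or lower (27.3%, against 7.42%) and 1 at 0.5 or higher (3.03%, against 6.47%). These genes were not drawn at random, and their shares stand here as a description of 2 arrays.

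**Figure D1:**
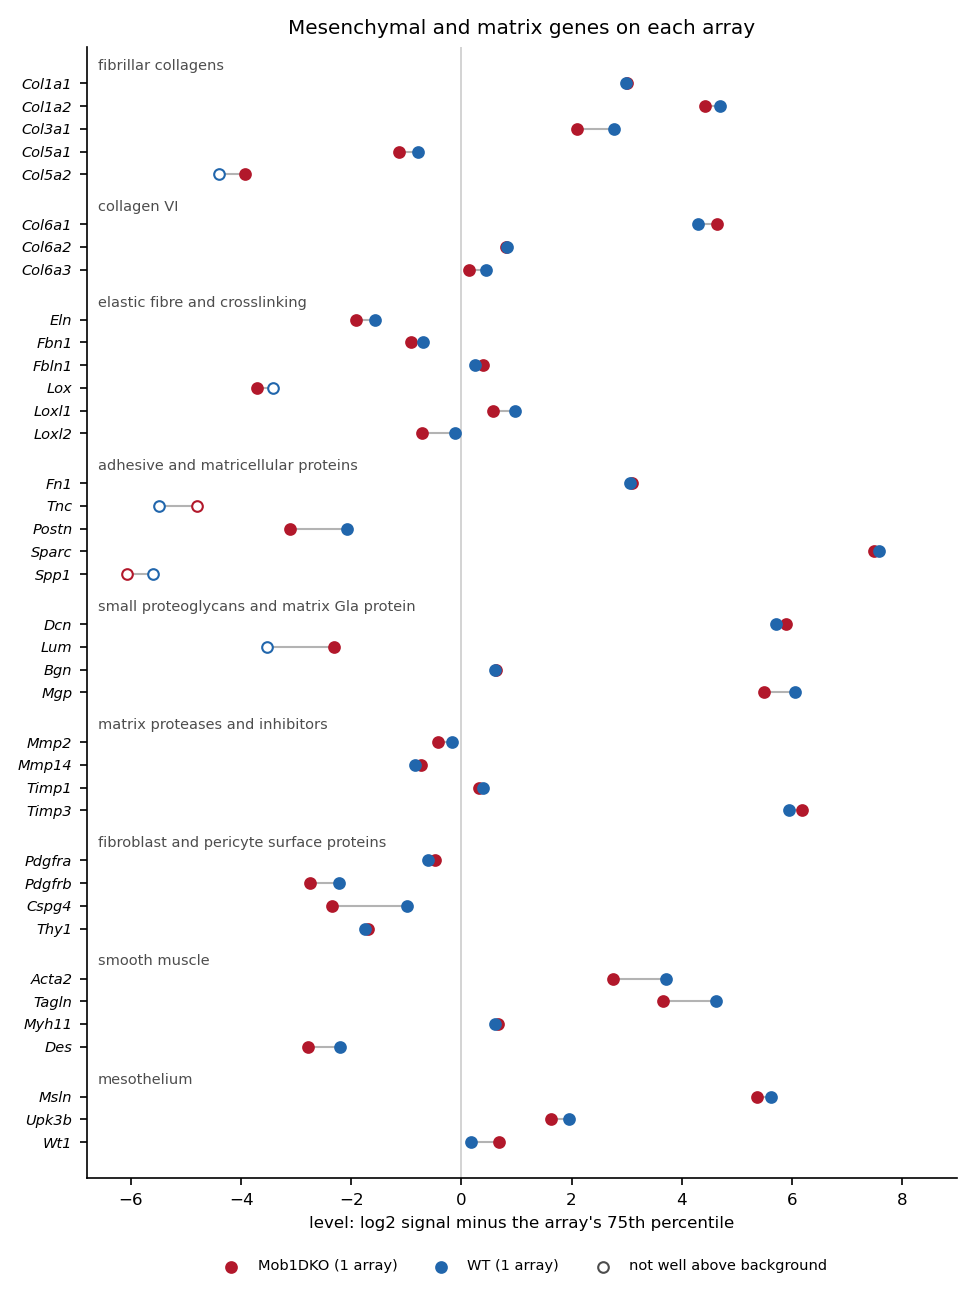
Level of each gene for Mob1DKO (red) and WT (blue), on the x axis as log2 signal minus the array's 75th percentile, with genes grouped by role on the y axis. Open points are not well above background. Points of a gene lie close together for most collagens and proteoglycans, and apart for Acta2, Tagln, Cspg4, Postn and Col3a1. Levels of different genes come from different probes and are not comparable.

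Among groups of members with 3 or more measured genes, smooth muscle had the lowest median difference. Acta2, the smooth muscle actin, had a processed signal of 1964 (Mob1DKO) and 2046 (WT), which is a level of 2.75 against 3.72 and a 1.96-fold lower value. Its probe was printed at 10 spots, and all 10 Mob1DKO spots, between 2.69 and 2.81, lay below the lowest WT spot at 3.66. Tagln, which encodes the actin-binding protein transgelin (SM22), was at 3.66 against 4.63, also 1.96-fold lower and far beyond its single-spot error of 0.066. Des, the muscle intermediate filament desmin, averaged -2.81 ± 0.24 (SD over 10 spots) against -2.22 ± 0.20, and 8 of its 10 Mob1DKO spots lay below every WT spot. Myh11, the smooth muscle myosin heavy chain, was at 0.67 against 0.61, a difference of 0.06 within its single-spot error of 0.11. The median of these 4 genes was -0.78. Spots share an RNA sample, so these spreads are technical.

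**Figure D2:**
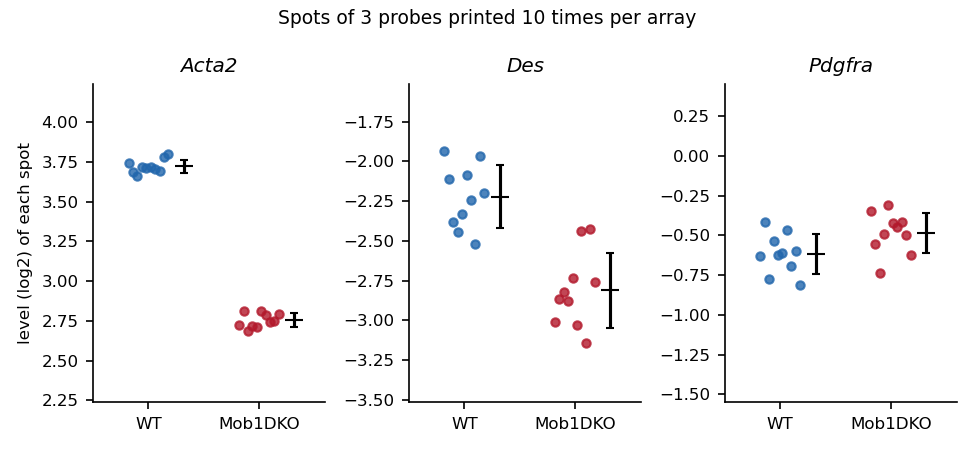
Level of each of 10 spots (y axis, log2 signal minus the array's 75th percentile) for Acta2, Des and Pdgfra on the WT array (blue) and the Mob1DKO array (red). Black marks give mean and SD over spots. The Acta2 spots do not overlap between arrays, the Des spots overlap slightly, and the Pdgfra spots overlap widely.

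Other smooth muscle genes lay on the same side. Their list of 13 was, like the members, chosen with earlier results of these data known. All 10 that both arrays measured above background were lower on the Mob1DKO array, between -1.02 and -0.26, with a median of -0.62. Actg2, the enteric smooth muscle actin, was called at 2.02-fold lower, with levels of 0.34 and 1.36 and a difference of -1.02, just past the limit. Its call ended when arrays were scaled on housekeeping genes (-0.86) and with normexp background correction (-0.80 with quantile normalization, -0.73 with 75th percentile scaling). The next ones were named after their values were seen. Cnn1, calponin, was at 1.71 and 2.64, a difference of -0.92. Mustn1 differed by -0.81 and Tpm2, a tropomyosin, by -0.76, with a second Tpm2 probe at -0.68. Myl9, a myosin regulatory light chain, was at 3.59 and 4.22, a difference of -0.63, and the myosin light chain kinase gene Mylk differed by -0.60. Myocd, the coactivator that switches on contractile genes, differed by -0.55 at levels of -3.02 and -2.47, close to its single-spot error. Cald1, caldesmon, differed by -0.48 and -0.28 on its 2 probes, and Smtn, smoothelin, by -0.26 and -0.20. Over both lists, 13 of 14 genes lay below 0, Myh11 being the exception, and 10 of 14 lay at -0.5 or lower (71.4%, against 7.42% of all genes). Among genes with a mean level of 0 or more, where the spot error is small, 6 of 9 did so, against 4.61% of all such genes.

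These differences are relative to the other genes of each array. On unscaled signals the median of all genes differed by 0.92, the smooth muscle members by 0.13 and the other smooth muscle genes by 0.29, so their sign turns without scaling while they stay below the median gene. Scaled on housekeeping genes, the 2 medians were -0.62 and -0.46. Actb, the cytoplasmic actin, differed by -0.79, and the probe sequences were not used here, so cross-hybridisation among actin genes was not tested. The red cell genes and Xist were lower on the same array as the smooth muscle genes. Of 8 endothelial markers, 5 lay below 0 (62.5%, against 48.2% of all genes), and 2 lay at 0.5 or higher. The part of any of these genes in the smooth muscle differences was not tested.

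**Figure D3:**
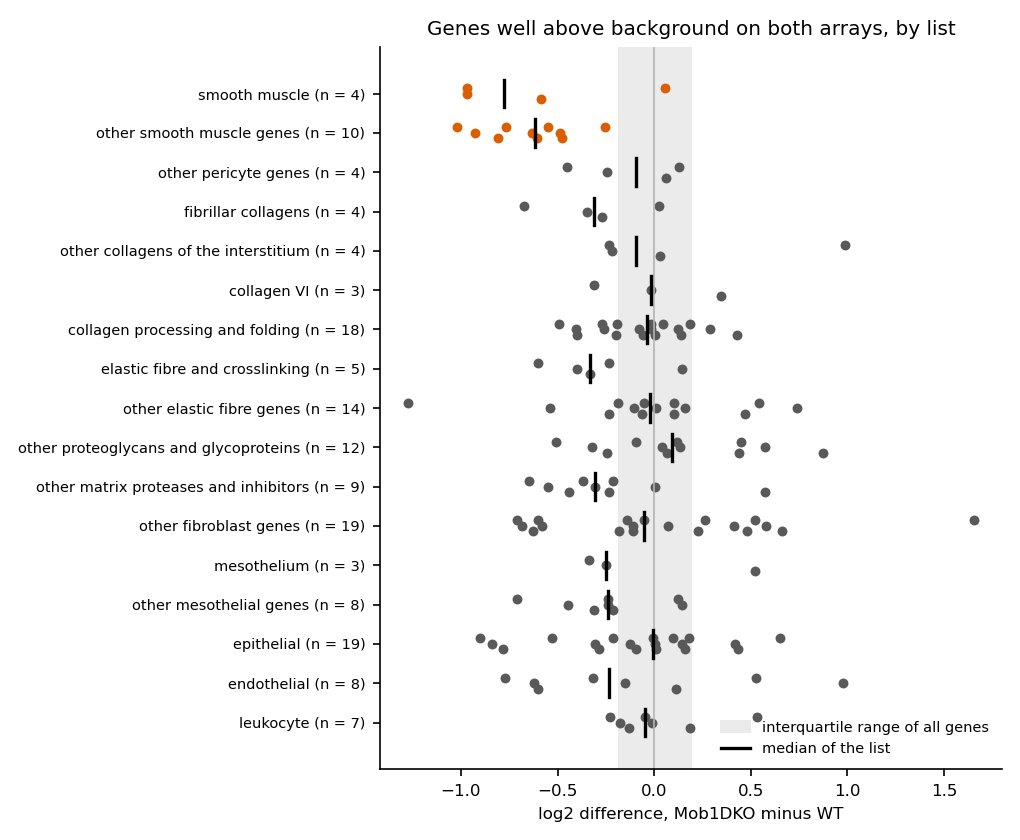
Difference of genes well above background on both arrays (x axis, log2, Mob1DKO minus WT), in lists of related genes (y axis, with the number of genes). Not shown are the members among adhesive proteins, small proteoglycans with Mgp, proteases with inhibitors, and surface proteins. The red cell (median -3.26) and housekeeping lists are also left out. Points are genes, black bars are medians and the grey band is the interquartile range of all genes, -0.18 to 0.19. Smooth muscle lists (orange) have medians of -0.78 and -0.62. The next lowest of the lists shown are elastic fibre and crosslinking (-0.33), fibrillar collagens (-0.31) and other matrix proteases and inhibitors (-0.30). Other fibroblast genes are at -0.05, epithelial markers at -0.01, and other proteoglycans and glycoproteins have the highest median, 0.09.

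Promoter windows of 4 of the lower smooth muscle genes are shown because each holds the letters bound by TEAD factors, the DNA partners of YAP and TAZ. They are the 250 bases before an annotated start in RefSeq (GRCm38.p6), written from 5′ to 3′ on the gene's strand, with the motif GGAATG, or CATTCC where it lies on the other strand, in capitals. A gene can have further starts.
Acta2, chr19:34255374-34255623, minus strand: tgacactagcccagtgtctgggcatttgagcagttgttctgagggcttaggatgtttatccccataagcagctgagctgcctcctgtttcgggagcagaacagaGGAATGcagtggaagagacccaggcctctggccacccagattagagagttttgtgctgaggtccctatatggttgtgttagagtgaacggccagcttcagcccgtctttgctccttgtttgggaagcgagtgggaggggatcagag
Mylk, chr16:34784700-34784949, plus strand: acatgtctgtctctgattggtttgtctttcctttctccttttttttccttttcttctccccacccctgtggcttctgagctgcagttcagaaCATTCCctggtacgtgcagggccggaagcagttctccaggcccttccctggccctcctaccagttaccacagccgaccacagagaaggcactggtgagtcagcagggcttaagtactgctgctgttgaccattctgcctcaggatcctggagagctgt
Cald1, chr6:34598254-34598503, plus strand: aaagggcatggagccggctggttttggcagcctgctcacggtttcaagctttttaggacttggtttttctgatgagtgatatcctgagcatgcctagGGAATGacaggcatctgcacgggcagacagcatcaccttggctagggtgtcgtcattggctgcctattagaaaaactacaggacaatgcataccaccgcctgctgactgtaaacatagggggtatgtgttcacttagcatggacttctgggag
Smtn, chr11:3539293-3539542, minus strand: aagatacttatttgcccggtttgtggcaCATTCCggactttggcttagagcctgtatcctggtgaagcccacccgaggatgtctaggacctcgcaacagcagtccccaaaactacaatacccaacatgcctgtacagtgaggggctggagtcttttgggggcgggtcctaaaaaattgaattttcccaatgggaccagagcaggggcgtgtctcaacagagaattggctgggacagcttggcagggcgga
The Acta2 match begins 146 bases before the start, that of Cald1 153, that of Mylk 158 and that of Smtn 222 bases. Of the 17 smooth muscle genes of both lists, 13 had a window in the table, and 5 of their 14 windows held the motif (35.7%), against 12.6% of all 32851 windows. Tagln, Myh11, Actg2 and Myocd had no window. The 4 genes shown differed by -0.97 (Acta2), -0.60 (Mylk), -0.48 (Cald1) and -0.26 (Smtn). The fifth window with the motif was that of Lmod1, which was below background on each array. Cnn1 (-0.92), Mustn1 (-0.81), Tpm2 (-0.76), Myl9 (-0.63), Des (-0.58) and Synpo2 (-0.49) were also lower and had windows without these letters. The second window of Cald1 did not hold them either. Among the other members, 4 of 24 windows held it (16.7%), those of Col3a1, Col6a2, Timp1 and Upk3b, whose differences were -0.67, -0.02, -0.07 and -0.34. A match is only a match of letters, and the motif was chosen with the differences known.

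Both pericyte members were lower, from faint signals, while other pericyte genes had both signs. Cspg4, the NG2 proteoglycan of pericytes, had a signal of 57.2 (Mob1DKO) and 78.1 (WT), levels of -2.35 and -0.99, and was 2.57-fold lower with a single-spot error of 0.25 on the log2 scale. Pdgfrb, the receptor through which pericytes are recruited, was at -2.75 and -2.23, a difference of -0.52 near its single-spot error of 0.48. With a model-based background correction (normexp with an offset of 50), Cspg4 came to -0.74 with quantile normalization and -0.97 with 75th percentile scaling, which ends the call. Pdgfrb came to -0.13 and -0.45. Of 8 other pericyte genes, 4 were measured on both arrays, 2 below and 2 above 0, with a median of -0.09 and none called. The brightest of them, the receptor gene Notch3 and the cytochrome oxidase subunit gene Cox4i2, differed by 0.13 and 0.06, and Rgs5 was not well above background.

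The fibroblast surface genes Pdgfra and Thy1 differed little. Pdgfra, the receptor of alveolar and matrix fibroblasts, averaged -0.48 ± 0.13 (SD over 10 spots) against -0.62 ± 0.12, and its spots overlapped between arrays except for 2 Mob1DKO spots above the highest WT spot. Thy1, a surface glycoprotein of fibroblasts, was at -1.70 and -1.76, a difference of 0.06. Of 24 other fibroblast genes, 19 were measured on both arrays, 10 below 0 and 9 above, with a median of -0.05. They spread to both sides: 5 lay at -0.5 or lower (26.3%, against 7.42% of all genes) and 4 at 0.5 or higher (21.1%, against 6.47%). Cdh11, the mesenchymal cadherin, was the one called: its brighter probe had a difference of 1.65, 3.15-fold higher on the Mob1DKO array, while its second probe, at -2.73 and -2.75, differed by 0.03. The probes of Cdh11 thus disagree, and normexp with 75th percentile scaling also ends its call (0.89).

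Fibrillar collagens form the tensile fibres of the interstitium. Collagen I is a heterotrimer of the Col1a1 and Col1a2 chains. Col1a1 was at 3.01 (Mob1DKO) and 2.99 (WT), a difference of 0.02, and Col1a2 at 4.43 and 4.70, a difference of -0.27. Col3a1, the collagen III chain of compliant tissue, was at 2.09 and 2.76, a difference of -0.67 against a single-spot error of 0.066. Col5a1, a collagen V chain that nucleates fibrils, was at -1.13 and -0.78, a difference of -0.35 near its single-spot error of 0.25. Col5a2 had a signal of 19.1 on the Mob1DKO array and was not well above background on the WT array, with no bound above 1-fold. Col1a1 thus stood level while Col3a1, on the same scale of error, did not.

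Collagen VI forms beaded microfibrils around cells. The differences of its chains had both signs. Col6a1 was at 4.64 and 4.29 (0.35), Col6a2 at 0.81 and 0.83 (-0.02) and Col6a3 at 0.13 and 0.44 (-0.31). Col6a1 and Col6a2 are neighbours on chromosome 10, Col3a1 and Col5a2 on chromosome 1, and Dcn and Lum on chromosome 10. Of 18 genes for collagen folding and processing, all were measured on both arrays and none was called, with a median of -0.04 and a range of -0.49 to 0.43. The brightest were the procollagen enhancer Pcolce at -0.27 and P4hb, protein disulphide isomerase, at 0.14. Of 12 other interstitial collagens, 4 were measured on both arrays, with a median of -0.10 and none called, and the brightest were Col16a1 (-0.23) and Col8a2 (0.03).

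Of the 5 elastic fibre and crosslinking members measured on both arrays, 4 lay below 0 (80%, against 48.2% of all genes), with a median of -0.33. Eln, tropoelastin, was at -1.91 and -1.58, a difference of -0.33, and Fbn1, the microfibril scaffold fibrillin-1, at -0.92 and -0.69, a difference of -0.23, both near the single-spot error of 0.25. Fbln1, a fibulin, was at 0.39 and 0.24, a difference of 0.15, and its dimmer probe differed by 0.68 from signals of 47.7 and 15.8. The lysyl oxidases crosslink elastin and collagen. Loxl2 was lower on all 3 of its probes, at -0.60, -0.66 and -0.54, the closest agreement among members with several probes. Loxl1 differed by -0.40 on its brighter probe (0.58 and 0.98) and by -0.15 on the other. Lox was close to background: 1 probe was above it only on the Mob1DKO array and the other only on the WT array, where its bound was at least 1.72-fold in favour of WT. Among 16 other elastic fibre genes, 14 were measured on both arrays, 7 below 0 and 7 above, with a median of -0.02. The one called was Mfap2, a microfibril-associated glycoprotein, at 0.26 and 1.53, 2.42-fold lower on the Mob1DKO array, with a second probe at -0.72 that does not reach the limit.

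**Figure D4:**
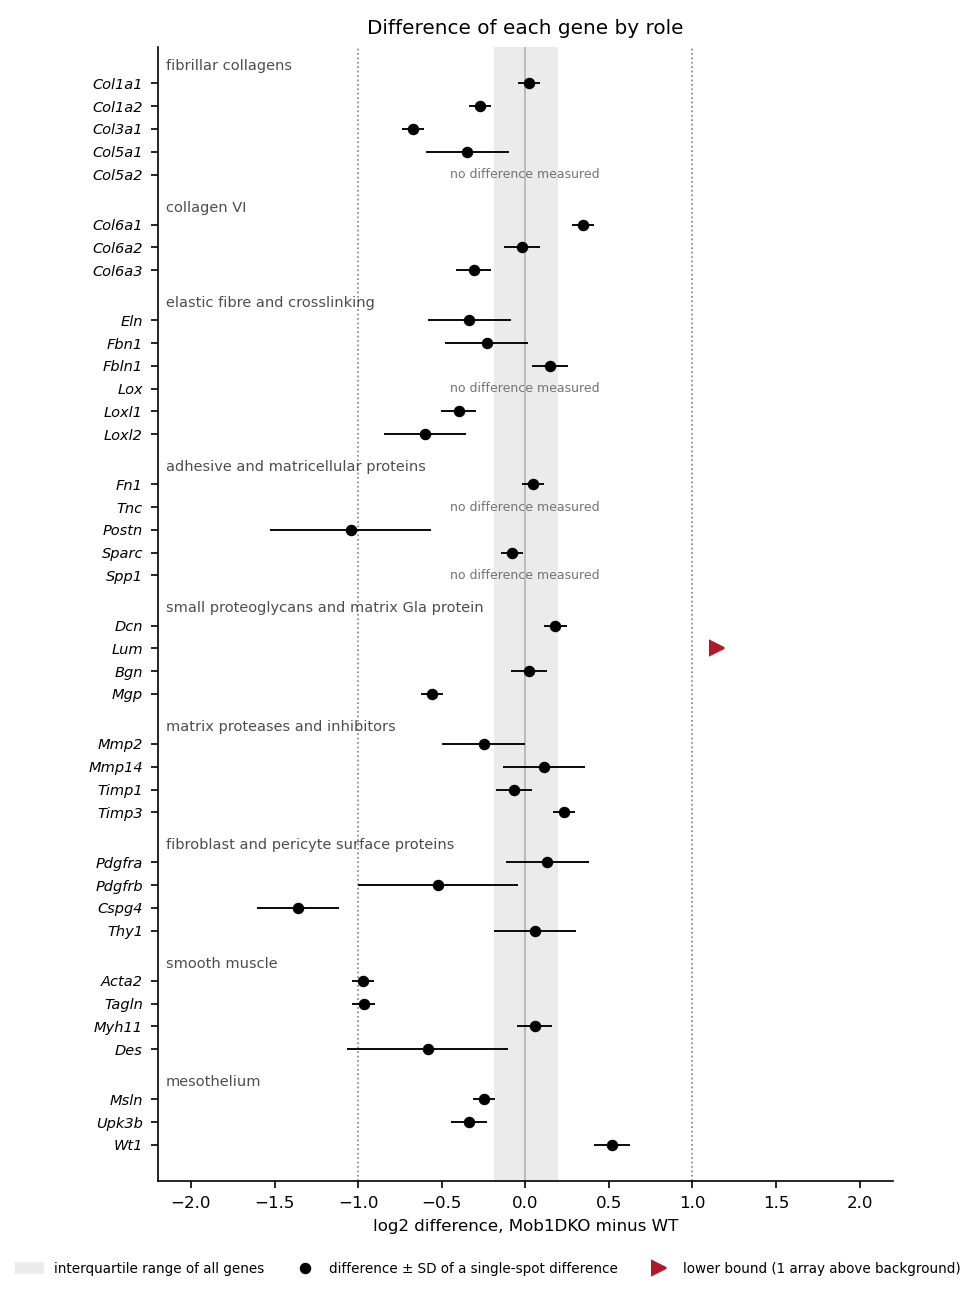
Difference of each gene (x axis, log2, Mob1DKO minus WT) by role (y axis). Points carry the SD of a single-spot difference at their level, the triangle is a lower bound for Lum (1.15), dotted lines mark 2-fold and the grey band is the interquartile range of all genes. Acta2 and Tagln lie at -0.97 with small errors, Cspg4 and Postn beyond -1 with larger ones, and Col6a1, Timp3 and Wt1 on the positive side.

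Adhesive and matricellular proteins link cells to the matrix. Fn1, fibronectin, was at 3.10 and 3.06, a difference of 0.04 within its single-spot error of 0.066. Sparc, a collagen-binding glycoprotein, differed by -0.08 on its bright probe (7.50 and 7.57) and by -0.69 on a dimmer one (1.95 and 2.64), so its value depends on the probe. The gap of 0.61 between these probes compares with a median gap of 0.24 and a 90th percentile of 0.75 over 3404 genes with several probes measured on both arrays. Postn, periostin, was at -3.12 and -2.08, 2.06-fold lower on the Mob1DKO array from signals of 33.5 and 36.8, with a difference of -1.04 and a single-spot error of 0.48. The call ended on housekeeping genes (-0.89) and with the background correction, at -0.34 with quantile normalization and -0.70 with 75th percentile scaling. Tnc (tenascin-C) and Spp1 (osteopontin), genes of wounded or inflamed matrix and of macrophages, were below background on each array.

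Small proteoglycans coat collagen fibrils. Dcn, decorin, was at 5.89 and 5.71, a difference of 0.18, and Bgn, biglycan, at 0.62 and 0.60, a difference of 0.02. Lum, lumican, had signals of 58.9 (Mob1DKO) and 13.5 (WT), the latter too faint to be well above background, and was at least 2.22-fold higher on the Mob1DKO array. With the background correction its bound, 1.15 on the log2 scale, shrank to 0.48 with quantile normalization or 0.04 with 75th percentile scaling, which ends the call. Mgp, matrix Gla protein, an inhibitor of calcification, was at 5.49 and 6.05, 1.47-fold lower on the Mob1DKO array with a difference of -0.56. Of 16 other proteoglycans and glycoproteins, 12 were measured on both arrays with a median of 0.09, none called, and the brightest, Sparcl1 and Smoc2, differed by 0.06 and 0.12.

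Proteases and their inhibitors balance matrix turnover. Mmp2, gelatinase A, was at -0.43 and -0.18 (-0.25), and its membrane activator Mmp14 at -0.73 and -0.84 (0.11), both about as small as or smaller than their single-spot error of 0.25. Timp1 was at 0.33 and 0.40, a difference of -0.07 within its error of 0.11. Timp3, the matrix-bound inhibitor, was at 6.18 and 5.95, a difference of 0.23 against an error of 0.066. Of 12 other proteases and inhibitors, 9 were measured on both arrays with a median of -0.30, 7 below 0 and none called, and the brightest, Timp2 and Adamts1, differed by -0.24 and -0.30.

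Mesothelial genes went both ways. Msln, mesothelin, was at 5.37 and 5.62, a difference of -0.25, and Upk3b, a uroplakin of mesothelium, at 1.62 and 1.96, a difference of -0.34. Wt1, the mesothelial transcription factor, was at 0.69 and 0.17, 1.43-fold higher on the Mob1DKO array with a difference of 0.52 against a single-spot error of 0.11. Of 10 other mesothelial genes, 8 were measured on both arrays, 6 below 0 and 2 above, with a median of -0.24 and none called. The brightest, the WNT agonist Rspo1 and the retinoic acid synthesis gene Aldh1a2, differed by -0.24 and -0.31.

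By cell of origin, the 18 fibroblast and matrix genes measured on both arrays had a median of -0.24. Over 21 genes it was -0.02, with Lum at its bound and Col5a2 and Lox taken as no difference, so this value rests on that choice. The medians were -0.78 for 4 smooth muscle genes, -0.94 for 2 pericyte genes and -0.25 for 3 mesothelial genes. The 6 measured genes also made by epithelium, endothelium or macrophages had a median of -0.01. The difference between these medians was not tested. Of 103 measured genes of the other matrix and mesenchymal lists, 1 was called higher and 2 lower, against 1.93% and 2.53% of all genes, and 98 were measured on both arrays, with a median of -0.11. Without smooth muscle, the median over 29 members was -0.23.

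**Figure D5:**
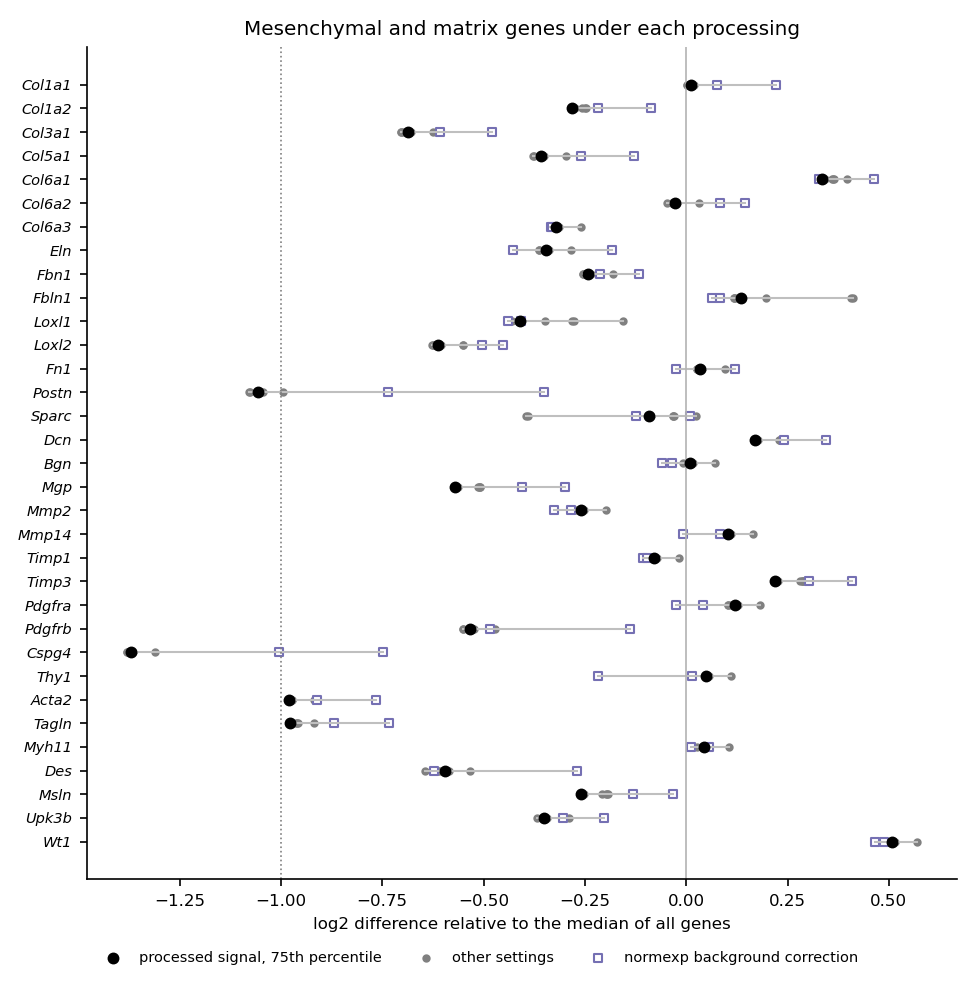
Difference of each gene measured on both arrays (y axis), relative to the median of all genes (x axis, log2, Mob1DKO minus WT), under each processing. Black points use the processed signal scaled on the 75th percentile, grey points other settings and squares the normexp background correction. Acta2 stays between -0.98 and -0.77, while Postn spans -1.08 to -0.35 and Sparc -0.39 to 0.02.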

How the data were processed

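Agilent Feature Extraction 10.7.1.1 produced the authors' intensity values, per the file headers, on a grid drawn for build mm9; version 9.5.1.1 stands in the submitters' processing notes. Background subtraction and detrending on each array had already been applied to the deposited processed signal, which is an intensity. Flags of 0 or 1, as deposited, mark spots well above background. How the authors made the deposited series value table, also of intensity, is not stated. Both of its columns have a median of 27.3 and correlate with their own arrays at r = 0.9998 and 0.9995 (log2, across probes), so the order of values within an array is that of the scanner files and the direction is that of the columns' labels. The equal medians show scaling between arrays that the scanner values do not have.

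Spots were averaged, control spots left out, and log2 signals scaled on each array's 75th percentile (R 4.3.3, limma 3.58.1, Python 3.11.15). Of 55681 probes, 27229 were named through RefSeq accessions (assembly GRCm38.p6) and 28452 were not. A gene with several probes took the brightest one well above background on at least 1 array. A gene not above background on 1 array has a bound. It is set against the higher of the gene's own value there and the lowest value well above background (-4.10 Mob1DKO, -3.45 WT). In medians that include such genes, a gene without a positive log2 bound counts as no difference. The gene table was tested on simulated data. Alternatives were other scalings, normexp (offset 50, on the median spot signal, as the files used hold no mean), the series table, filters, outlier spots, probe rules and a 1.5-fold call. Named genes are all members, the called genes of the other matrix and mesenchymal lists (the 2 brightest where none was called) and the 2 brightest of each marker list. Any other gene was named for its list's counts or after its value was seen. Members and lists were chosen with earlier results of these data known. With 1 array per group, no test was run, and precision is limited by the number of arrays.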

Additional observations from a re-analysis of the deposited data

How the results depend on the processing

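No paired analysis was possible because each group holds 1 array and no result comes from a test. Differences and medians below are relative to the median of all genes, which was 0.92 without scaling, 0.16 when scaled on housekeeping genes and between -0.05 and 0.03 elsewhere. Counts of called genes are not recentred. Scaling alone shifts all genes equally, so scaling on the median, on housekeeping genes or not at all could not change the recentred values. Not recentred and without scaling, Col3a1 (0.24), Mgp (0.35) and Pdgfrb (0.39) lay above 0. Acta2 (-0.06), Tagln (-0.06), Postn (-0.13) and Cspg4 (-0.45) lay below 0. Of the 33 differences, Acta2, Tagln, Des, Cspg4, Pdgfrb, Postn, Col1a2, Col3a1, Col5a1 and Col6a3 stayed below 0 under every setting run. So did Eln, Fbn1, Loxl1, Loxl2, Mgp, Mmp2, Timp1, Msln and Upk3b. Wt1, Col6a1, Timp3, Dcn, Col1a1, Fbln1 and Myh11 stayed above 0 under every setting run. The members called higher (1) became 8 without scaling and 0 with normexp under either scaling or when both arrays had to be above background. The members called lower (2) became 1 on housekeeping genes, 0 without scaling and with normexp under either scaling, and 6 at 1.5-fold. The median over members stayed between -0.27 and -0.13. The smooth muscle member median went from -0.79 to -0.57 with normexp and quantile normalization, while 7 to 11 smooth muscle genes, a count chosen after seeing the data, stayed at -0.5 or lower. The adhesive protein median went from -0.09 to -0.39 over averaged or median probes, through Sparc. With normexp and quantile normalization, the surface protein median went from -0.24 to -0.062 (-0.35 with 75th percentile scaling) and the pericyte median from -0.95 to -0.44 (-0.74 with 75th percentile scaling). The mesothelial median went from -0.26 to -0.032 with normexp and 75th percentile scaling, and the fibroblast median from -0.25 to -0.0745 without a background filter. Genes called over the whole array ranged from 95 to 5783 higher (291 here) and from 113 to 1207 lower (382), and those among other matrix and mesenchymal genes from 0 to 32 higher (1) and 0 to 13 lower (2). With normexp some faint differences shrank and others grew (Eln from -0.35 to -0.43 with 75th percentile scaling), and the cause was not tested. Signal over background limits Postn, Pdgfrb, Des, Lum, Lox and Col5a2.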
